A study of Homo sapiens with 3 samples.

Results

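The housekeeping genes described here are 9 loci that most human cells transcribe at a high rate: the ribosomal protein genes RPLP0, RPL3, RPL4, RPS2, RPS3 and RPS6, the elongation factor gene EEF1A1, the glycolytic gene GAPDH and the cytoplasmic actin gene ACTB. Each gene was given a window in hg19, with limits in whole kb, and an m6A region belonged to a gene when its midpoint lay in the window and its strand was that of the gene. This rule found 44 of the 41836 m6A regions in the deposited list, and 9 of 9 genes held at least 1. The regions came from nuclear RNA of the breast cancer line MDA-MB-231, a long-established human cell line, captured with a rabbit antibody against N6-methyladenosine (m6A) in 2 libraries and with rabbit IgG as the control in 1 library. The labels name no treatment for any of the 3 libraries, and nothing in them says whether the 2 m6A libraries came from separate cultures.

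The list is the authors' merged outcome and holds 0 columns for a single library. No height, enrichment over IgG, read depth or replicate spread could be given for any region, and the series as given here has no input library that would measure the RNA itself. The methylation of an RNA and its abundance in the nucleus therefore cannot be told apart. The values are positions and widths, they carry no replicate error, and no test was made. Since 1 RNA can give many neighbouring regions, the 44 regions are not independent of each other.

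m6A is the most common internal methyl mark of messenger RNA. It is written onto nascent RNA by a complex around METTL3 and METTL14, mostly within a short motif whose core is GGAC, and it is known to be sparse near splice junctions and frequent in long internal exons and around stop codons. Ribosomal protein mRNAs are long-lived, and they are often taken as poor in m6A. Several of these genes also carry small nucleolar RNAs (snoRNAs) in their introns, which are released from the excised introns in the nucleus. The transcripts of ribosomal proteins and of EEF1A1 typically open with a C followed by a run of pyrimidines, the terminal oligopyrimidine (TOP) element, through which their translation follows nutrient supply.

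The TOP opening was looked for in these genes because it is the start element this class is known for. It was read from a set of RefSeq starts in GRCh38.p14 in which 7 of the 9 genes were matched; the starts of RPS2 and ACTB were not analysed here. Each line gives 20 bases before and 10 bases from the annotated start, 5′ to 3′ on the strand of the gene, with capitals for the unbroken pyrimidines that begin at the start itself. The coordinates on these lines are in GRCh38.p14 and are not comparable with the hg19 positions of the m6A regions.
RPLP0, chr12:120201102-120201131, minus strand: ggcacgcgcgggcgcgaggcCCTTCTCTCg
RPL3, chr22:39319614-39319643, minus strand: gacccgtaaggccgaccggcCTCTaccggc
RPL4, chr15:66504846-66504875, minus strand: acatatacagcgggagtggtaagcacttcc
RPS3, chr11:75399498-75399527, plus strand: cttccgcccgcgagccacttCCTTTCCTTT
RPS6, chr9:19380227-19380256, minus strand: gcgctaagcggaagttggccCTCTTTTCCg
EEF1A1, chr6:73521023-73521052, minus strand: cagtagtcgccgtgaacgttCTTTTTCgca
GAPDH, chr12:6535244-6535273, plus strand: tgcgcagcgggtgcatccctgtccggatgc

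A C followed by at least 4 pyrimidines opened 4 of these 7 starts, those of RPLP0, RPS3, RPS6 and EEF1A1, and 1429 of the 35116 RefSeq starts of that set (4.07%); only the strand of the gene was read. The run was 11 pyrimidines long at RPS3, 9 at RPLP0 and RPS6, 7 at EEF1A1 and 4 at RPL3. RPL4 was annotated to start at an A and GAPDH at a G. The 4 genes with the opening held 23 m6A regions in 45 kb of window (0.51 per kb), against 16 in 22 kb (0.73 per kb) for RPL3, RPL4 and GAPDH. This order rested on RPS3, whose window takes 24 of those 45 kb. Without it, RPLP0, RPS6 and EEF1A1 held 18 regions in 21 kb (0.86 per kb), more than the 0.73 of RPL3, RPL4 and GAPDH. The split follows the annotated starts, whose accuracy was not tested, and RPL3 and RPL4 are ribosomal protein genes too.

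The m6A regions of the housekeeping genes were crowded. The 9 windows together held 0.59 regions per kb on the strand of the gene (44 in 75 kb), whereas the list as a whole held 0.0070 per kb and strand over the stretch of each chromosome that its regions span. The list's value takes in all sequence between genes and is not a level for transcribed sequence. Regions covered 4.37% of the housekeeping windows, against 0.0389% of the span of the list. RPLP0 had the highest density, with 1.17 regions per kb, followed by GAPDH and ACTB with 0.80 each, EEF1A1 with 0.78, RPL4 with 0.75, and RPL3 and RPS6 with 0.67 each. RPS2 had 0.33 and RPS3 had 0.21 regions per kb. One region more or less moves a 5 kb window by 0.2 per kb, and the values between 0.67 and 0.80 lie closer together than that.

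The low density of RPS3 came with a window of 24 kb, 5 regions of which lay within 9.16 kb of its upstream limit. Read against the genomic span of 1 GENCODE release 29 transcript per gene, a length taken from GRCh38 without its coordinates, RPLP0 again came first with 1.55 regions per kb. EEF1A1 then had 1.33, ACTB 1.16, GAPDH 0.90, RPS6 0.88, RPL4 and RPL3 0.87 each, RPS3 0.67 and RPS2 0.36. The 6 ribosomal protein genes together had 0.52 regions per kb of window (29 in 56 kb) and 0.75 without RPS3. EEF1A1, GAPDH and ACTB had 0.79 (15 in 19 kb).

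**Figure D1:**
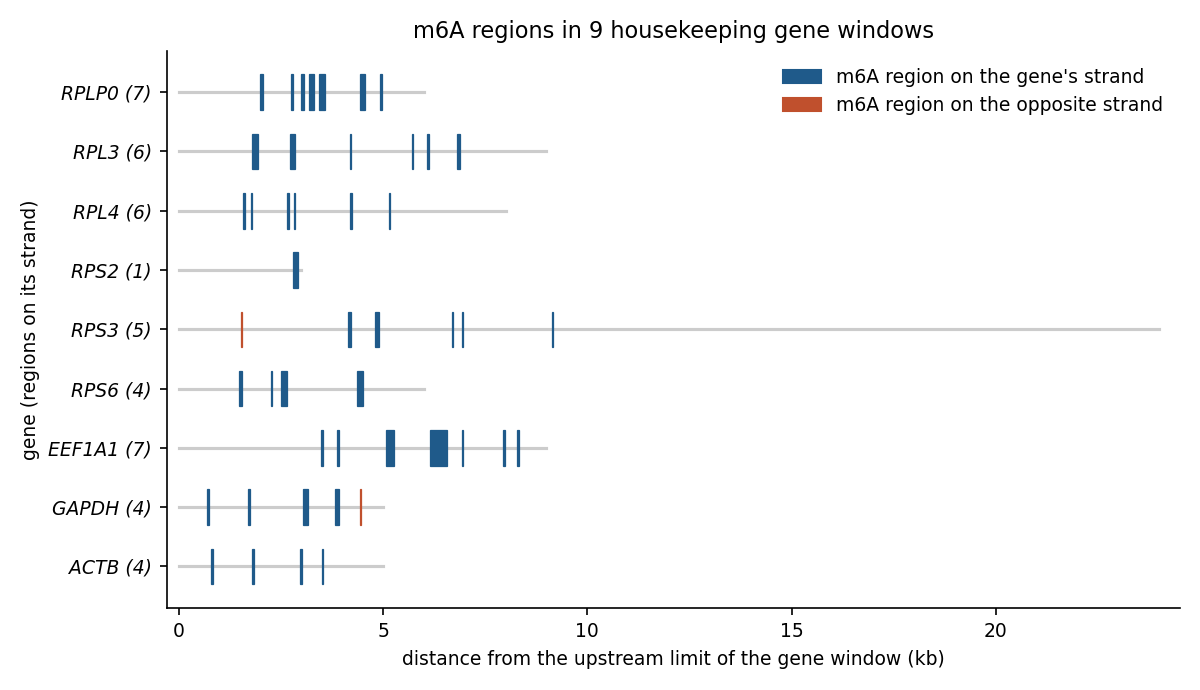
Position of each m6A region, drawn to scale as a bar, along 9 gene windows in kb from the upstream limit, read in the direction of transcription. Blue bars lie on the strand of the gene and red bars on the opposite strand; RPLP0 and EEF1A1 hold 7 regions each, RPS2 holds 1, and the regions of RPS3 end 9.16 kb into its 24 kb window.

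RPLP0 encodes the stalk protein of the large ribosomal subunit that carries P1 and P2 and helps to recruit translation factors. Its window, 120634 to 120640 kb of chromosome 12, minus strand, held 7 m6A regions between 120635031 and 120638020. In the direction of transcription they were 80, 57, 58, 127, 134, 119 and 47 nt wide. None was narrower than the list's median of 45 nt, and they covered 622 nt, or 10.4% of the window. The smallest gap between regions was 118 nt and the largest 873 nt.

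RPL3 and RPL4 encode core proteins of the large subunit, RPL3 near the peptidyl transferase centre and RPL4 with a loop that reaches the exit tunnel. The window of RPL3 ran from 39708 to 39717 kb and that of RPL4 from 66790 to 66798 kb. The 6 regions of RPL3 lay on the minus strand of chromosome 22 between 39710130 and 39715200, and in the direction of transcription they were 131, 119, 30, 20, 49 and 58 nt wide. Both wide ones were the first that transcription reaches. The 6 regions of RPL4 lay on the minus strand of chromosome 15 between 66792839 and 66796431 and were 46, 41, 35, 20, 48 and 21 nt wide. None of the RPL4 regions reached 50 nt, so the same number of regions covered 211 nt in RPL4 and 407 nt in RPL3.

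RPS2 and RPS3 encode small-subunit proteins that line the entry path of the mRNA, and RPS6 encodes the small-subunit protein phosphorylated by the S6 kinases. The windows were 2012 to 2015 kb for RPS2, 75110 to 75134 kb for RPS3 and 19375 to 19381 kb for RPS6. RPS2 was the gene with the fewest regions: a single one of 135 nt (chromosome 16, minus strand, 2012082 to 2012216), 0.15 kb inside the downstream limit of a 3 kb window. The 5 regions of RPS3 lay on the plus strand of chromosome 11 between 75114143 and 75119169, with widths of 61, 90, 31, 19 and 23 nt. The last 3 of them were narrower than the lower quartile of the list, 33 nt. The 4 regions of RPS6 lay on the minus strand of chromosome 9 between 19376500 and 19379532 and were 79, 36, 144 and 132 nt wide.

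EEF1A1 encodes the factor that brings aminoacyl-tRNA to the ribosome, and it held the widest housekeeping region. On the minus strand of chromosome 6, in a window from 74225 to 74234 kb, its 7 regions lay between 74225672 and 74230531, and in the direction of transcription they were 49, 46, 191, 404, 28, 49 and 48 nt wide. The region of 404 nt, from 74227447 to 74227850, ranked 54th of 41836 in width, and the region of 191 nt, from 74228740 to 74228930, ranked 868th. These 2 regions made up most of the 815 nt covered there. A further region of 141 nt on the same strand, from 74224624 to 74224764, lay 0.31 kb beyond the downstream limit and was not counted.

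GAPDH encodes the glycolytic enzyme glyceraldehyde-3-phosphate dehydrogenase, and ACTB encodes beta-actin. The 4 regions of GAPDH lay on the plus strand of chromosome 12 between 6643703 and 6646914 and were 34, 48, 124 and 98 nt wide in the direction of transcription. The 4 regions of ACTB lay on the minus strand of chromosome 7 between 5567462 and 5570214 and were 45, 52, 47 and 27 nt wide. Both windows are 5 kb long, 6643 to 6648 kb for GAPDH and 5566 to 5571 kb for ACTB, and in both the first region lay within 1 kb of the upstream limit, at 0.72 kb in GAPDH and 0.81 kb in ACTB. The GAPDH regions covered 304 nt and those of ACTB 171 nt. A region of 51 nt lay 0.86 kb beyond the downstream limit of ACTB.

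Wide regions were frequent in some of these genes and absent from others. Of the housekeeping regions, 11 of 44 were wider than 100 nt (25%), whereas 10.3% of all regions in the list were. RPLP0 held 3 of them, RPL3, RPS6 and EEF1A1 held 2 each, RPS2 and GAPDH 1 each, and RPL4, RPS3 and ACTB none. Their median was 49 nt and their quartiles lay at 35.8 and 103 nt, against a median of 45 nt and quartiles at 33 and 54 nt in the list. The upper quartile thus stood further from the list than the median did. The width of exactly 49 nt, the most frequent in the list, was held by 3 of 44 housekeeping regions (6.82%), and 8.79% of all regions had it.

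**Figure D2:**
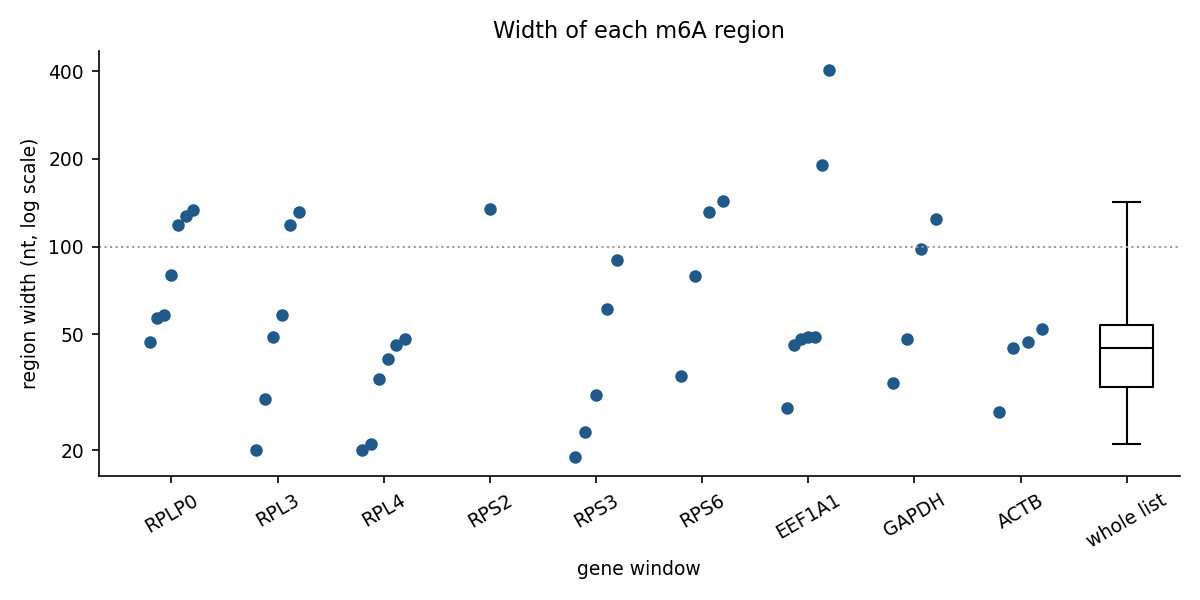
Width of every m6A region in nt on a log scale, 1 blue point per region for each gene window, with the whole list at the right as a box of its quartiles (33 and 54 nt), its median (45 nt) and whiskers at its percentiles 5 and 95. The dotted line marks 100 nt; 11 points lie above it, in 6 genes, with 404 nt in EEF1A1 the highest.

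The crowding can also be read from region to region, which largely repeats the counts per gene. Counting same-strand midpoints within 2.5 kb, the region itself included, 32 of 44 housekeeping regions (72.7%) had a count of at least 4, whereas 19.3% of the list had. The median count was 4 in the housekeeping genes and 2 in the list. A single housekeeping region, that of RPS2, had no same-strand neighbour within that distance (2.27%), against 43.7% of the list. The contrast depended on the distance: within 1 kb the share with a count of at least 4 was 9.09% in the housekeeping genes and 5.02% in the list, and within 5 kb it was 97.7% and 33.2%. Every gene but RPS2 held at least 4 regions with midpoints less than 5 kb apart. The housekeeping share at 5 kb therefore restates the counts per gene. The share at 2.5 kb largely does so too. That distance on each side spans 5 kb, and the chosen transcripts have a median genomic span of 4.54 kb. The median gap between successive regions inside a window was 698 nt over 35 gaps, with a range of 118 to 2185 nt, and the median gap over the list was 4686 nt. Gaps inside a window are bounded by its length, so part of that contrast is set by the windows.

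**Figure D3:**
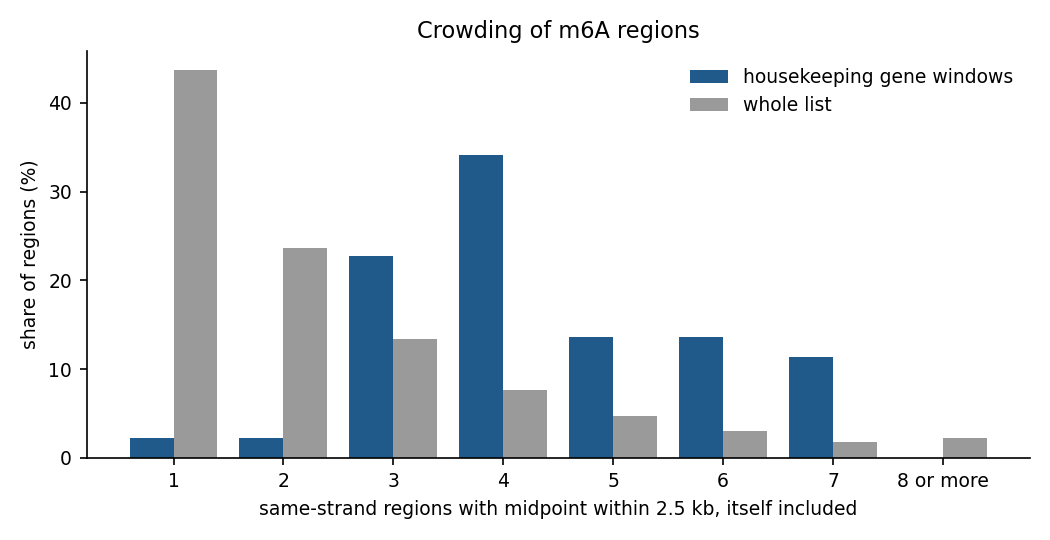
Share of regions in percent by the number of same-strand regions whose midpoints lie within 2.5 kb, the region itself included, for the 44 housekeeping regions (blue) and all 41836 regions (grey). Housekeeping regions peak at a count of 4 (34.1%) and the list at a count of 1 (43.7%); no housekeeping region reached 8.

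Of the 9 housekeeping genes, 5 stood as islands in sequence without regions on their strand. No same-strand region lay within 50 kb of the windows of RPL3, RPL4, RPS3 and RPS6. The nearest ones were 201 kb upstream and 443 kb downstream of RPL3, 1702 and 707 kb from RPL4, 562 and 146 kb from RPS3, and 80.8 and 254 kb from RPS6. EEF1A1 had 2 further regions within 5 kb downstream and none upstream for 123 kb. When same-strand regions up to 10 kb apart were joined into chains, 8 of the 9 genes belonged to a chain of at least 4 regions. These chains held 43 of 44 housekeeping regions (97.7%), and chains of that size held 55.1% of all regions in the list. The housekeeping share again follows from the counts per gene, since every gene but RPS2 held at least 4 close regions. For 5 of these 8 the chain had no same-strand region within 50 kb on either side, namely RPL3, RPL4, RPS3, RPS6 and EEF1A1. Of all 2796 chains of that size in the list, 25.1% stood as far apart. A long gene can be cut into several chains less than 50 kb apart, none of which then counts as isolated. The median genomic span is 4.54 kb in the 9 genes and 22.1 kb over all protein-coding genes, so the 2 shares are not like for like. What gene length contributes was not tested.

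RPLP0 had more neighbours. It had 23 same-strand regions within 50 kb, the largest number of the 9 genes, but the nearest lay 9.20 kb upstream and 5.84 kb downstream of its window, and the flanks held 0.23 regions per kb against 1.17 per kb in the window. GENCODE places PXN upstream and GCN1 downstream of it on the same strand, but no region outside a window was assigned to a gene here. GAPDH had 9 same-strand regions within 50 kb, all on its upstream side, where GENCODE places NCAPD2 on the same strand. The nearest downstream region on the strand of GAPDH was 192 kb away. ACTB had 6 same-strand regions within 50 kb, the nearest of them 0.86 kb downstream, and none for 92.7 kb upstream. RPS2 had 4, all upstream, with the nearest at 34.0 kb. Over the 9 genes the flanks of 50 kb held 44 regions in 900 kb, or 0.049 per kb, against 0.59 per kb in the windows. RPLP0 alone gave 23 of these 44 and 4 genes gave none. The flanks were not limited to transcribed sequence, so their value is not a level for it.

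**Figure D4:**
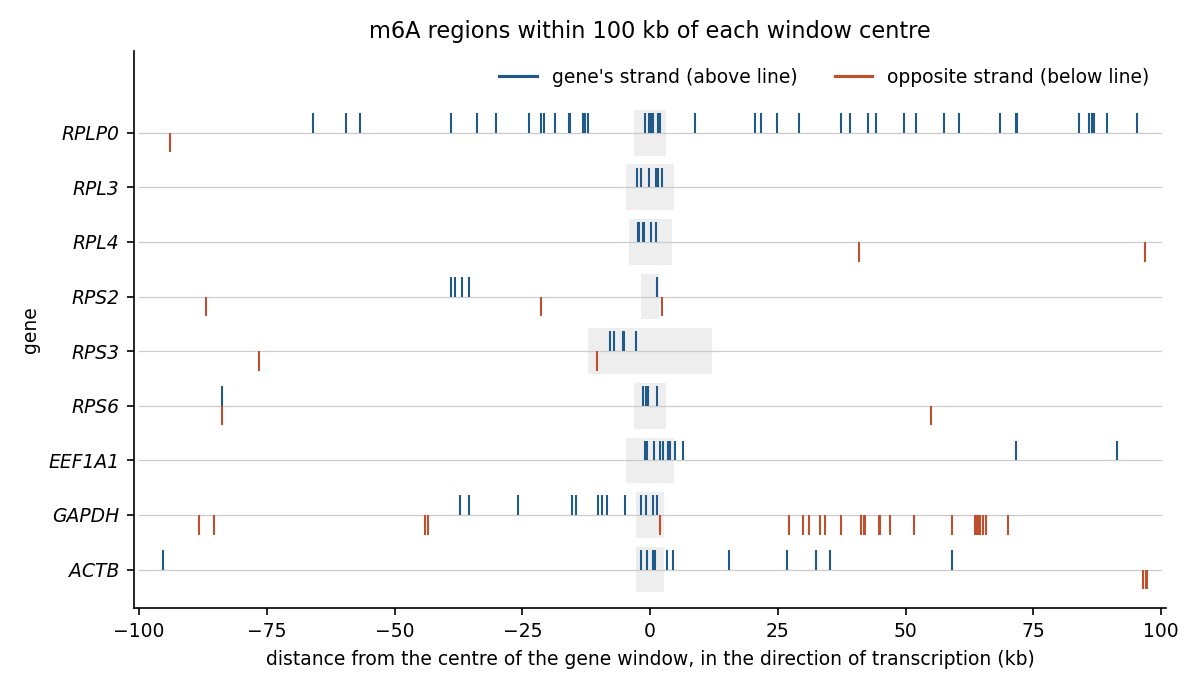
Midpoints of m6A regions within 100 kb of the centre of each gene window (grey box), in kb along the direction of transcription, on the strand of the gene above each line in blue and on the opposite strand below it in red. RPL3, RPL4, RPS3 and RPS6 show no blue mark outside the box within 50 kb, whereas RPLP0 has 23 and GAPDH 9 within 50 kb of the window.

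Nearly all regions in the windows followed the strand of the gene. Of 46 regions on either strand, 44 lay on the strand of the gene (95.7%) and 2 on the opposite one. In RPS3 the opposite-strand region was 47 nt wide, from 75111513 to 75111559, and lay 1.54 kb from the upstream limit, before the first region of the gene itself at 4.17 kb. In GAPDH it was 31 nt wide, from 6647437 to 6647467, and lay 4.45 kb into the window, beyond the last region of the gene at 3.87 kb. GENCODE lists IFFO1 as the next protein-coding gene downstream of GAPDH on the opposite strand and an antisense RNA overlapping GAPDH; neither was placed in hg19 here. Both strands were counted for this split, and no share of this kind was computed over the whole list. The split describes the windows and gives no measure of strand accuracy.

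Within the windows the regions leaned to no common end. Of 44 regions, 23 lay upstream of the midpoint of their window, among them 4 of 6 in RPL4, 3 of 4 in RPS6 and 5 of 5 in RPS3, whose window runs far past its last region. In EEF1A1 5 of 7 and in RPLP0 5 of 7 lay downstream of it. The EEF1A1 window is 9 kb long, its chosen transcript spans 5.27 kb, and its first region lies 3.49 kb from the upstream limit. GAPDH, ACTB and RPL3 were evenly divided. Window limits are given in whole kb and can lie well outside the RNA, so the split at the midpoint depends on the windows. These positions do not place a region in an exon, an intron or an untranslated part, and no annotation in hg19 was used.

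The gene models set the regions in context without coordinates. In GENCODE release 29, the transcripts chosen for the 9 genes have 6 to 10 exons, a median length of 1812 nt and a median genomic span of 4.54 kb, whereas the median over 19631 protein-coding genes is 2654 nt and 22.1 kb. The longest internal exon is 172 to 211 nt in the 6 ribosomal protein genes, 297 nt in EEF1A1, 413 nt in GAPDH and 439 nt in ACTB, against a median of 216 nt over all genes that have one. The median internal exon is not short in the ribosomal protein genes. It is 127.5 to 160 nt there, against a median of 126 nt over all genes that have one. In GAPDH it is 100 nt, in ACTB 211 nt and in EEF1A1 235 nt. The core motif, searched as GGAC followed by A, C or T on the RNA strand of the spliced transcript, occurred 2.16 to 3.86 times per kb in the 9 transcripts (median 2.39) and had a median of 3.34 per kb over all protein-coding genes, 98.4% of whose transcripts held it. RPS6 (2.16) and RPL4 (2.17) had the lowest motif density and ACTB (3.86) and RPL3 (3.47) the highest of the 9. These counts do not say whether any m6A region contains the motif.

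The total width of the regions can be set beside the spliced length of each RNA. It came to 49.5% of the transcript length in RPLP0, 28.2% in both RPL3 and RPS6, 18.4% in EEF1A1, 16.2% in GAPDH, 13.7% in RPS2, 10.7% in RPS3, 9.44% in ACTB and 7.62% in RPL4. These are ratios of lengths, since the part of each region that is exonic was not determined. They also depend on the transcript chosen. Its 3′ untranslated part is 2060 nt in EEF1A1, 1392 nt in RPL4, 1303 nt in RPS3, 600 nt in ACTB and 578 nt in RPS6. In GAPDH it is 201 nt, in RPLP0 66 nt, in RPL3 56 nt and in RPS2 46 nt. Inside these genes, on the same strand, GENCODE lists SNORD43, SNORD83A and SNORD83B in RPL3, SNORD16, SNORD18A, SNORD18B, SNORD18C and the Rfam entry RF01159 in RPL4, SNORA10 and SNORA64 in RPS2, and SNORD15A and SNORD15B in RPS3. No snoRNA is listed inside the other 5 genes, and no region was placed relative to a snoRNA here.

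This gene class is known for its many processed pseudogenes, which are intronless copies of spliced RNAs. GENCODE names 62 pseudogenes after GAPDH, 39 after EEF1A1, 20 after RPS2, 13 each after RPL3 and RPS6, 10 after ACTB, 6 after RPL4, 5 after RPLP0 and 4 after RPS3, 172 in all. Bowtie2 aligns reads to the genome without splicing, so a read across an exon junction has no unbroken match in the gene but may have one in such a copy. How reads with several matches were treated is not given in the sources used here. What pseudogenes contribute to the region counts was not tested.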

How the data were processed

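MDA-MB-231 nuclear RNA was immunoprecipitated with an m6A antibody (2 libraries) or IgG (1 library), eluted with free N6-methyladenosine and prepared with a ScriptSeq V2 kit, per the labels' protocols. Per the submitters' processing notes, Bowtie2 and the hg19 build were used. How peaks were called, with which thresholds and use of IgG, and how libraries were merged is not given in the sources used here. As deposited by the authors, the score column is the same in every region and was not used, so the start and end are the measurements. Depth is unknown.

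Positions are in hg19, counted from 1. A region belonged to a window by midpoint and strand, width counts both the first and the last base, and wide means over 100 nt. All 9 genes were named whatever their values. The genes and lists were chosen with earlier results of these data known. Windows, neighbours and joining were tested on simulated regions, where each planted count was found. GENCODE release 29 and RefSeq starts, both GRCh38, gave names, lengths, motifs and start sequences; from GENCODE 1 basic principal transcript per gene was taken, linked to RefSeq first, then by support level and length. The other ribosomal protein and housekeeping genes of the planned list were not analysed here, because no hg19 annotation was used. Alternatives changed the membership rule, the flanks, the joining of regions, the neighbour distance and the set of genes. Python 3.11.15, numpy 2.4.6, pandas 2.3.3 and matplotlib 3.10.9 were used.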

Additional observations from a re-analysis of the deposited data

How the results depend on the processing

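The count of 44 regions was 44 by any overlap of 1 nt, 46 on either strand, 46 and 49 with windows widened by 1 and 5 kb, and 36 with regions up to 300 nt apart joined. With windows widened by 50 kb it was 88, by construction, since flanking sequence was added. All 9 genes kept a region under each of these membership rules. The density of 0.59 per kb was 0.40 with regions wider than 45 nt alone; RPL4 then had 0.25 per kb, RPS3 0.083 and ACTB 0.40. The median width stayed at 49 nt without the widest region. Flanking regions numbered 65 within 100 kb. Leaving out each gene in turn, the share of regions over 100 nt ran from 21.6% without RPLP0 to 28.9% without RPL4, and that of crowded regions from 67.6% without RPLP0 to 76.3% without RPL3. The density of the 4 genes with the pyrimidine opening was 0.51 per kb and 0.86 without RPS3, which turned its order against the 0.73 of RPL3, RPL4 and GAPDH. The joining, the 100 kb flanks, the neighbour distances and leaving out genes were added after seeing the data. The chains, the pyrimidine opening, the share over 100 nt and the share of crowded regions were not listed among the planned results. Leaving out a library could not be run, as the list has no value per library. No paired analysis was possible because no column belongs to a single library.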
